A study of Bos taurus with 14 samples.

Results

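Splicing factors, the proteins that build the spliceosome or steer its choice of exons, were examined in whole bovine conceptuses flushed on Day 15. Members were chosen by gene name: Sm and snRNP proteins (SNRP names other than SNRPN), LSm proteins, SF3A and SF3B subunits, U2AF, PRPF proteins, SR proteins (SRSF) and hnRNP proteins. The rule found 95 probe sets of 65 genes among 24016 probe sets and 9155 named genes. The rule uses names and no measured value. Of the 65 genes, 21 had more than 1 probe set, and 2 further probe sets named SNRPF together with another gene and were left out. SNRPD1, SNRPE, SRSF2, HNRNPA1, HNRNPA2B1, U2AF2 and PRPF19 were not analysed here.

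The 14 conceptuses were Holstein, sired by 1 bull, recovered as embryos on Day 6.5, graded by morphology and transferred to recipient heifers with 2 to 6 embryos each. Grade 1 embryos gave 5 long conceptuses (1 male, 4 female), 5 short ones (2 male, 3 female) and 1 male with no recorded length. Grade 3 embryos gave 3 conceptuses (2 male, 1 female), also with no recorded length. A conceptus at this stage holds trophoblast, hypoblast and the embryonic disc together, so fewer cells of a type and less RNA per cell cannot be told apart. For short replicate 1 the labels disagree: the length characteristic says short and the source name says long, and the first was used because it gives the 5 and 5 that the study states. Which conceptuses shared a dam or a recipient is not given, so the p-values reflect only how these conceptuses vary among themselves. All values are log2 expression values from 1 Affymetrix array per conceptus, and the number of arrays limits the precision. Interferon tau, the trophoblast signal of early pregnancy in ruminants, measured 14.58 in long, 14.48 in short and 14.51 in Grade 3 conceptuses (IFNT2, means). The highest value on any array was 14.61, so this probe set sat near the top of the scale and may not show differences.

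Introns are removed by the spliceosome, which assembles on each new transcript from small nuclear ribonucleoproteins. The U1 particle reads the 5′ splice site. U2AF and then the U2 particle with SF3A and SF3B mark the branch point and 3′ splice site, and the U4/U6.U5 tri-snRNP joins to form the machine that is rearranged for catalysis. A ring of Sm proteins holds the U1, U2, U4 and U5 RNAs, and a ring of LSm proteins holds U6. SR proteins mostly promote the use of exons, while hnRNP proteins bind nascent RNA and often repress splice sites.

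Long and short conceptuses of the same embryo grade differed by small steps in splicing factors, mostly towards lower values in long ones. Of the 95 probe sets, 6 fell and 1 rose in long conceptuses at an adjusted p under 0.05 (limma, Benjamini-Hochberg over all probe sets). That is 7.37% of the members, against 6.57% of all probe sets tested, so the share of calls was near the background. By direction, 6.32% of the members fell and 1.05% rose, against 3.87% and 2.7% of all probe sets. The difference was below 0 in 72 member probe sets (75.8%), against 55.7% of all probe sets. In 25 members (26.3%) every long conceptus was below every short one, against 5.52% of all probe sets, and in 1 (1.05%) every long one was above, against 2.9%. At an unadjusted p under 0.05, 34 members were lower (35.8%, against 12.9%) and 3 higher (3.16%, against 9.06%). The median difference over the members was -0.101 on the log2 scale, and over all probe sets -0.020. No member differed by 1.5 fold, which 3.16% of all probe sets did.

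Most members gave a strong signal, and nearly all of these had lower means in long conceptuses. The mean over the 14 arrays was at least 10 in 51 member probe sets. Of these 46 (90.2%) were below 0 in long conceptuses, against 60.6% of the 2591 probe sets that bright, and their median was -0.151, against -0.044. The test called 4 of them lower (7.84%), against 7.8% of probe sets that bright. In 20 of them (39.2%) the long and short values did not overlap and were lower in long, against 14.8%. The 44 dimmer members had a median of -0.054. The plot of difference against signal shows that probe sets of 1 gene could part along this axis: the bright probe set of SNRPD3 stood at -0.13 and its dim one at 0.22.

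**Figure D1:**
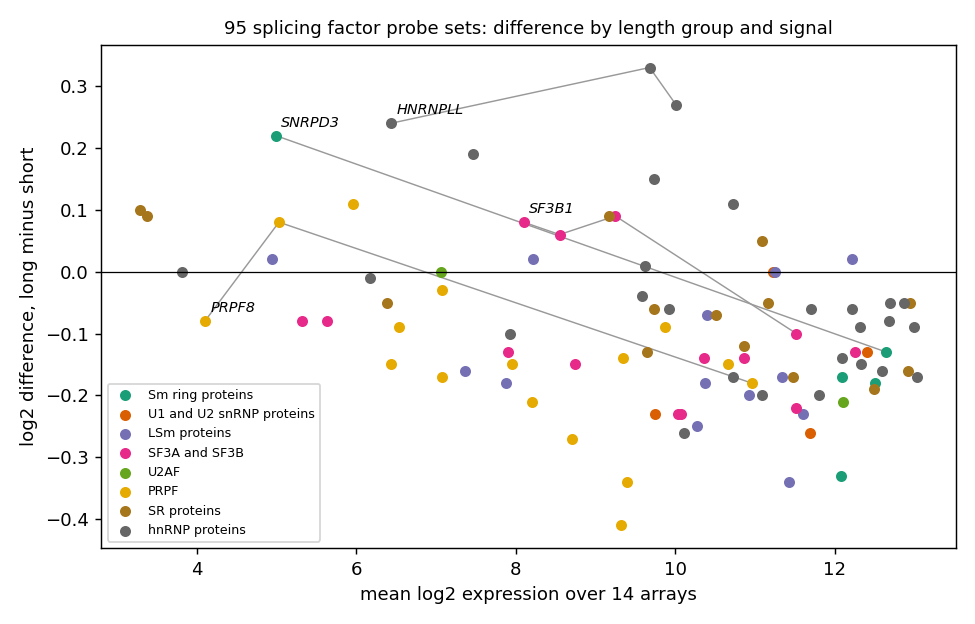
Each point is 1 of the 95 splicing factor probe sets, coloured by protein family, with its mean log2 expression over 14 arrays on the horizontal axis and the log2 difference, long minus short (5 and 5 conceptuses), on the vertical axis. Grey lines join the probe sets of SNRPD3, SF3B1, HNRNPLL and PRPF8; points with a mean of at least 10 lie mostly below 0 (46 of 51), and dimmer points spread to both sides.

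By conceptus, the median deviation of the 95 probe sets from their 14-array means was -0.043, -0.065, -0.034, -0.035 and -0.054 in long replicates 1 to 5. In short replicates 1 to 5 it was 0.005, 0.049, 0.064, 0.063 and 0.110. All 5 long conceptuses were thus below all 5 short ones, and short replicate 1, whose labels disagree, was the lowest of the short. Grade 3 replicates 1 to 3 lay at 0.007, -0.002 and -0.038, and the conceptus with no length at 0.007. Over all 24016 probe sets the same median ran from -0.027 to -0.000 in long and from -0.013 to 0.050 in short conceptuses. Over all probe sets with a mean of at least 10 it ran from -0.025 to -0.009 in long and from 0.002 to 0.039 in short, so that there, too, all long conceptuses were below all short ones.

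**Figure D2:**
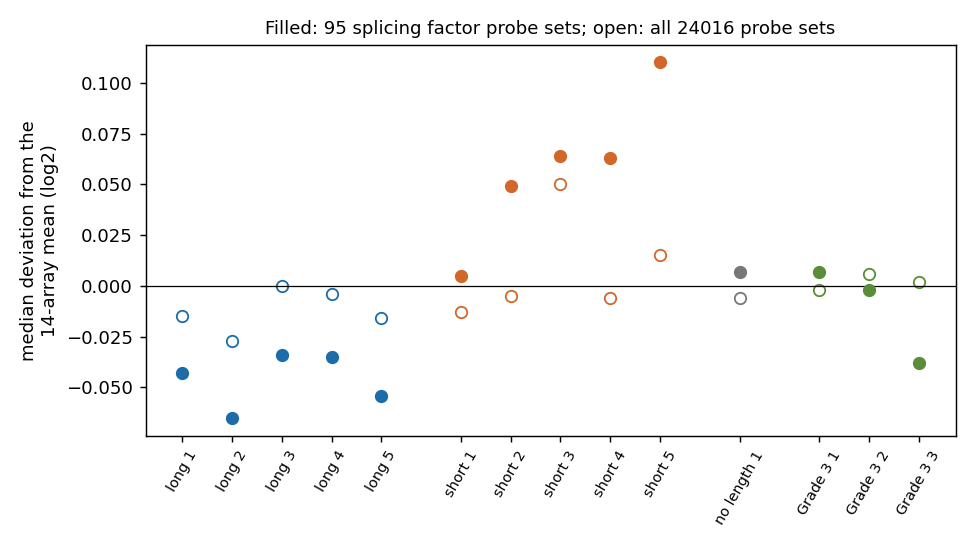
Filled points give, for each of the 14 conceptuses, the median over 95 splicing factor probe sets of the deviation from the 14-array mean (log2), and open points the same over all 24016 probe sets. Filled points of long conceptuses lie between -0.065 and -0.034, and those of short ones between 0.005 and 0.110.

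The calls depended on single conceptuses, as did those over all probe sets, whose share called was 6.57% with all 10 and between 1.92% and 7.07% with 1 left out. The count of falls was 3 without short replicate 2, 2 without long replicate 1, 2 or 5 or short replicate 5, and 0 without short replicate 4. It was also 0 with short replicate 1 counted as long, where the smallest adjusted p of a member was 0.0501 and 2.05% of all probe sets were called. The single rise was lost without long replicate 1, 2, 4 or 5 or short replicate 3, 4 or 5, and without short replicate 1 the counts were 2 higher and 7 lower. The direction did not depend on them: between 72 and 76 of the 95 differences were below 0 whichever of the 10 was left out. With the arrays quantile-normalised once more, 1 member rose and 3 fell, and 71 were below 0.

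Titles of the samples share prefixes whose meaning is not stated, and 2 prefixes hold long and short conceptuses. Where a prefix held 2 long conceptuses and 1 short one, 71 of 95 members were lower in long (74.7%, against 54.1% of all probe sets; median -0.11). Where it held 1 long and 2 short, 74 were (77.9%, against 55.4%; median -0.10). With the prefix as a fixed block no member passed in limma (smallest adjusted p = 0.153), and 0.466% of all probe sets did.

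Sm ring proteins, the core of each snRNP, were lower in long conceptuses in 4 of 5 probe sets, and 1 passed. SNRPB, the B/B′ subunit, measured 11.87, 11.68, 12.07, 12.06 and 11.94 in long replicates 1 to 5 and 12.27, 12.19, 12.14, 12.33 and 12.35 in short replicates 1 to 5. The groups did not overlap, and long replicate 2 was the lowest. SNRPB fell by 0.33 ± 0.08 (log2, SE; 20.4% lower; adjusted p = 0.0397). Leaving out each of the 10 conceptuses in turn ended this call 7 times, and the adjusted p reached 0.0909 (short replicate 4 left out). SNRPD2 and SNRPG stood at -0.18 and -0.17 with groups that did not overlap, and the bright probe set of SNRPD3 at -0.13; none of these passed. The dim SNRPD3 probe set, the member of this family above 0, had adjusted p = 0.104.

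Among the proteins particular to U1 and U2, the U2 protein SNRPA1, which pairs with SNRPB2 on the U2 RNA, passed. Its values were 11.57, 11.42, 11.60, 11.55 and 11.60 in long conceptuses and 11.67, 11.75, 11.82, 11.88 and 11.95 in short ones. Long replicate 2 stood below the other long conceptuses, which lay close together, and no long value reached a short one. SNRPA1 fell by 0.26 ± 0.07 (SE; 16.7% lower; adjusted p = 0.0443). Without long replicate 2 the adjusted p was 0.103, and 9 of the 10 such omissions ended the call. Its partner SNRPB2 stood at -0.00 (95% interval -0.17 to 0.17), and the U1 proteins SNRPA and SNRPC at -0.23 and -0.13, SNRPC without overlap. None of these passed. SNRPA measured 9.73, 9.12, 9.76, 9.79 and 9.66 in long replicates 1 to 5 and 9.77 to 9.92 in short conceptuses, so long replicate 2 stood far below the rest.

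LSm proteins were lower in 9 of 13 probe sets, with a median of -0.166. LSM7, a subunit shared by the nuclear ring on U6 RNA and the cytoplasmic ring of mRNA decay, measured 11.33, 11.11, 11.32, 11.27 and 11.26 in long and 11.58, 11.47, 11.57, 11.65 and 11.68 in short conceptuses. The highest long value was 11.33 and the lowest short value 11.47. LSM7 fell by 0.34 ± 0.07 (SE; 20.8% lower; adjusted p = 0.0185) and of the 10 omissions only that of short replicate 4 ended the call (0.0513). LSM1, the subunit that marks the cytoplasmic ring, stood at -0.25 (adjusted p = 0.052), and LSM8, which marks the nuclear ring on U6, at -0.20 (0.0705), each without overlap. LSM4, LSM2, LSM12, LSM5, LSM10 and LSM6 lay between -0.23 and -0.07. LSM3, a subunit of both rings, stood at 0.02 (95% interval -0.10 to 0.14), and LSM14A, a component of cytoplasmic processing bodies rather than of the ring, at 0.00 and 0.02 in its 2 probe sets.

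SF3A and SF3B, the U2 subcomplexes that clasp the branch point, had 11 of 14 probe sets below 0 and none past the threshold. SF3A2 came nearest, at 10.03, 9.81, 10.01, 10.07 and 9.98 in long and 10.24, 10.07, 10.28, 10.19 and 10.28 in short conceptuses. The groups met at the highest long and the lowest short value. Its difference was -0.23 ± 0.07 (SE; adjusted p = 0.0694). SF3B2, SF3B3 and SF3B5 did not overlap between the groups, at -0.23, -0.22 and -0.14. SF3B4, SF3A3, SF3A1 and SF3B6 lay between -0.15 and -0.13 in their brightest probe sets. SF3B1, the largest subunit, stood at -0.10 in its brightest probe set and between 0.06 and 0.09 in the other 3.

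U2AF1, the small U2AF subunit that reads the AG of the 3′ splice site, stood just outside the threshold. It measured 11.97, 11.90, 12.08, 12.09 and 12.02 in long and 12.22, 12.17, 12.18, 12.29 and 12.25 in short conceptuses, with no overlap. The difference was -0.21 ± 0.06 (SE; adjusted p = 0.0565 in limma). A call was gained in 4 alternative settings of processing and not in 7 others. None of the 10 omissions gave a call, with adjusted p from 0.0675 to 0.127. U2AF1L4, a paralogue, stood at 0.00 (95% interval -0.16 to 0.17).

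PRPF proteins, named after yeast pre-mRNA processing mutants, held the member with the largest fall, PRPF3, and 14 of 16 probe sets were below 0. PRPF3 and PRPF31 belong to the U4/U6 part of the tri-snRNP, and both passed. PRPF3 measured 8.98, 8.92, 9.31, 9.22 and 9.17 in long and 9.56, 9.34, 9.42, 9.72 and 9.63 in short conceptuses. The highest long value, 9.31, lay just under the lowest short value. PRPF3 fell by 0.41 ± 0.10 (SE; 24.8% lower; adjusted p = 0.0321). The call ended under 5 of the 10 omissions, and the adjusted p reached 0.0773 (short replicate 4 left out).

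PRPF31 measured 9.14, 9.11, 9.32, 9.27 and 9.26 in long and 9.54, 9.49, 9.48, 9.64 and 9.65 in short conceptuses, with a gap between the groups. It fell by 0.34 ± 0.07 (SE; 20.9% lower; adjusted p = 0.0185), and of the 10 omissions only that of short replicate 4 ended the call (0.0513). The dimmer PRPF31 probe set stood at -0.15 (adjusted p = 0.118), also without overlap. PRPF6, a bridging tri-snRNP protein, and PRPF8, at the centre of the U5 particle, did not overlap between groups at -0.21 and -0.18, and neither passed. PRPF38A and the kinase PRPF4B followed at -0.15 each, again without overlap. PRPF4, partner of PRPF3, stood at -0.09 (95% interval -0.25 to 0.07), PRPF38B at -0.14, PRPF39 at -0.09 and the second-step factor PRPF18 at -0.03. The other probe sets of PRPF38B, PRPF39 and PRPF18 stood at -0.27, 0.11 and -0.17, and none passed. Both PRPF18 probe sets had a mean of 7.08.

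None of the 14 SR protein probe sets passed, and 10 were below 0 with a median of -0.055. SRSF9 had the smallest p: it measured 12.81, 12.80, 12.87, 12.85 and 12.87 in long and 12.97, 12.92, 13.06, 12.99 and 13.06 in short conceptuses. These groups did not overlap, yet the difference was only -0.16 ± 0.05 (SE; adjusted p = 0.118). SRSF7 stood at -0.19, also without overlap, and SRSF11 at -0.17 in its bright probe set. SRSF1, SRSF3, SRSF4, SRSF6 and SRSF10 lay between -0.13 and -0.05, and SRSF5 stood at 0.05 (95% interval -0.26 to 0.36).

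Of the 27 hnRNP probe sets 19 were below 0 and 8 above, with a median of -0.061, and 1 passed in each direction. HNRNPC, which binds uridine tracts and packages nascent transcripts, measured 11.76, 11.65, 11.69, 11.65 and 11.65 in long and 11.90, 11.90, 11.82, 11.95 and 11.85 in short conceptuses. The groups were apart, though the step was small. HNRNPC fell by 0.20 ± 0.05 (SE; 13.1% lower; adjusted p = 0.0484), and each of the 10 omissions ended the call, the adjusted p reaching 0.111 (short replicate 4 left out).

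HNRNPLL, known as the regulator of CD45 exon choice in lymphocytes, was the member that rose. Its called probe set, not the brightest of its 3, measured 9.91, 9.90, 9.73, 9.87 and 9.99 in long and 9.74, 9.67, 9.58, 9.42 and 9.36 in short conceptuses. Long replicate 3 and short replicate 1 touched, and the other values were apart. It rose by 0.33 ± 0.08 (SE; 25.4% higher; adjusted p = 0.0434) and the call ended under 7 of the 10 omissions, the adjusted p reaching 0.103 (long replicate 5 left out). The brightest HNRNPLL probe set stood at 0.27 without overlap (adjusted p = 0.0745) and the dimmest at 0.24 (adjusted p = 0.384), so all 3 had the same sign. CD45 itself, PTPRC, averaged 3.00 in long and 3.11 in short conceptuses (adjusted p = 0.587 in limma). The lowest value on any array was 2.235 and the lowest array median 5.62, so this probe set sat near the floor and may not show differences. Of its 3 probe sets 1 had the opposite sign.

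Of the other hnRNP genes none passed. HNRNPA0, HNRNPAB, HNRNPH3, HNRNPM, HNRNPDL and HNRNPD lay between -0.20 and -0.14 in their brightest probe sets. HNRNPA0 also had a probe set at -0.26 without overlap (adjusted p = 0.0549) and a dimmer one at -0.10. HNRNPF, HNRNPH1, HNRNPR, HNRNPU and HNRNPK lay between -0.09 and -0.05. HNRNPH2, HNRNPUL1 and HNRNPL stood at 0.15, 0.11 and 0.01. HNRNPH1 and HNRNPH2 are close paralogues whose probe sets differed in sign, and neither difference passed.

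**Figure D3:**
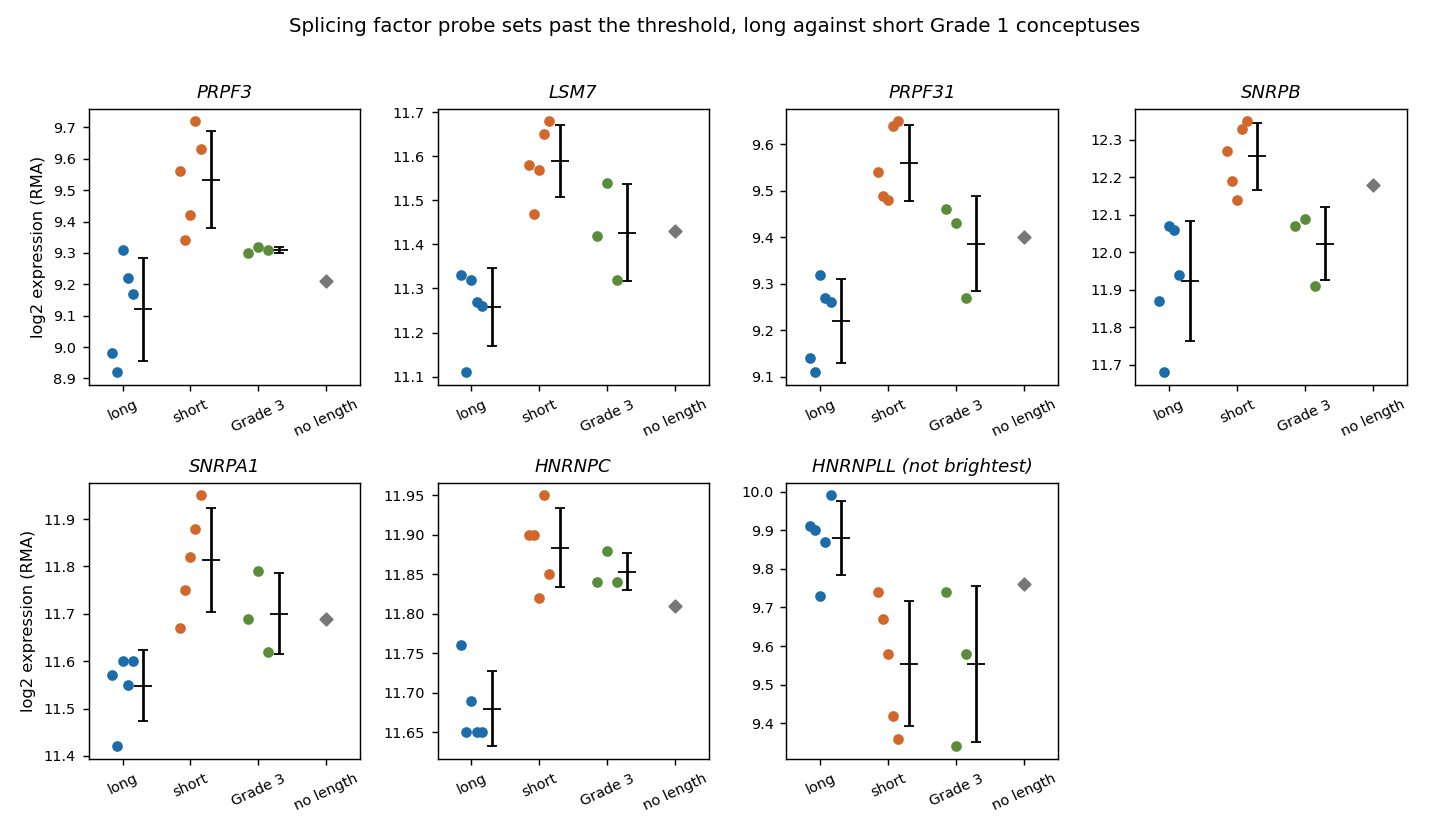
Log2 expression of the 7 splicing factor probe sets past the threshold between long and short conceptuses, by conceptus (5 long, 5 short, 3 Grade 3, 1 with no length); horizontal marks and bars are group means and SD, and each vertical axis has its own range. In PRPF3, LSM7, PRPF31, SNRPB, SNRPA1 and HNRNPC the long conceptuses lie below the short ones with no overlap, while HNRNPLL is higher in long ones and touches at 9.73 and 9.74.

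**Figure D4:**
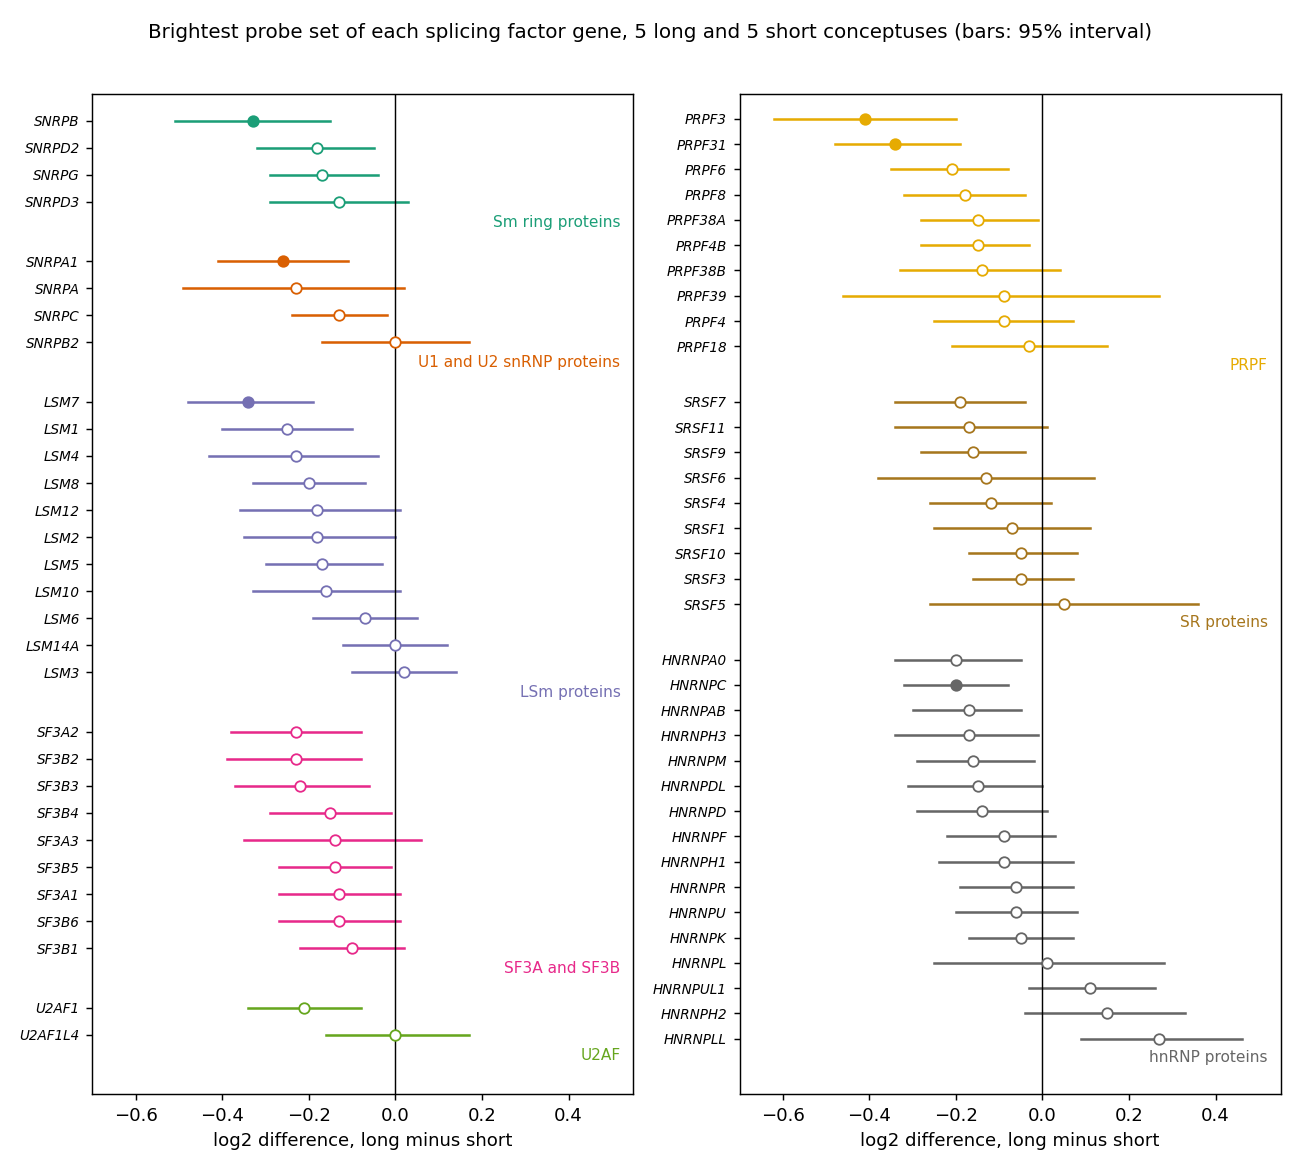
Log2 difference, long minus short, with its 95% interval for the brightest probe set of each of 65 splicing factor genes, grouped by family; filled points passed an adjusted p of 0.05. Of the 65 points 57 lie below 0, and the 6 filled ones lie between -0.41 and -0.20.

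Counted by gene through the brightest probe set, 6 of 65 genes fell (9.23%) and none rose in limma (1 was higher at an unadjusted p under 0.05, or 1.54%, against 10.3% of named genes). Of all named genes 6.24% fell and 3.27% rose. These shares are not matched for signal: 7.8% of probe sets with a mean of at least 10 fell. Of the 65, 57 (87.7%) were below 0, against 58.8% of named genes. Where a gene had several probe sets, 13 of 21 genes had them all on the same side of 0. The 8 others were SNRPD3, LSM5, SF3B1, PRPF8, PRPF39, SRSF1, SRSF11 and HNRNPUL1, and no probe set of these passed. Probe sets of 1 gene can read different transcript ends, and levels of different probe sets are not compared here.

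Further genes of the spliceosome, of snRNP assembly and of splicing regulation, from 7 lists chosen by function, were also mostly lower in long conceptuses. These lists, like the members, were drawn up with earlier results of these data known. Each gene was read through its brightest probe set. Of 134 such genes 20 fell (14.9%) and 1 rose, read against the same 6.24% for falls, or 7.8% of probe sets with a mean of at least 10. Of the 134, 115 were below 0 (85.8%, against 58.8% of named genes). Of 27 further snRNP and tri-snRNP proteins 7 fell and none rose. PHF5A, an SF3B subunit outside the naming rule, fell by 0.43 ± 0.08 (SE, adjusted p = 0.0132). It averaged 11.89 in long (11.74 to 12.02), 12.31 in short (12.18 to 12.46) and 12.11 in Grade 3 conceptuses. LUC7L, a U1-associated protein, fell by 0.46, the U4 RNA binder SNU13 by 0.32 and the U1 protein SNRNP70 by 0.32.

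The machinery that assembles snRNPs showed falls in 6 of 12 genes and no rise, where 6.24% of named genes fell. The median was -0.24, against -0.020 over all probe sets and -0.044 over those with a mean of at least 10. Neither background is limited to the brightest probe set of named genes. GEMIN4, a subunit of the SMN complex, fell by 0.48 ± 0.10 (SE, adjusted p = 0.0248), from 9.11 in short to 8.63 in long conceptuses. PRMT5, which methylates Sm proteins, fell by 0.39 (adjusted p = 0.0382), its cofactor WDR77 by 0.38 (0.0475) and SNUPN, the import adaptor of snRNPs, by 0.31 (0.0366). PRMT5 and WDR77 also serve other substrates.

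Among 20 spliceosomal helicases and step factors DHX16, a helicase of the activation step, fell by 0.43 ± 0.07 (SE, adjusted p = 0.00937). It was the gene of these lists with the smallest adjusted p, and long values lay between 8.18 and 8.35 against 8.52 to 8.82 in short. XAB2 was the 1 gene of 13 in the PRP19 complex list to fall (0.45), and RBM8A, a core protein of the exon junction complex, the 1 of 10 in its list (0.33). Over all named genes 6.24% fell and 3.27% rose. None of 16 SR-related proteins and SR kinases passed in limma, where 4 were lower at an unadjusted p under 0.05 and the smallest adjusted p was 0.0747. A dimmer probe set passed for RSRC2 in this list and for SART1, MAGOHB, CELF1 and SYNCRIP in the others, genes whose brightest probe set did not. Of 36 other splicing regulators 4 fell and 1 rose. QKI fell by 0.46, RBM25 by 0.39 in its brightest probe set (1 other had the opposite sign) and RBM4 by 0.28, and RBFOX2, which binds UGCAUG elements beside regulated exons, rose by 0.64 ± 0.14 (SE, adjusted p = 0.0284). With 1 conceptus left out in turn, DHX16 and PHF5A kept the call in all 10 fits. RBM25 lost it in 3, GEMIN4 in 4, LUC7L, QKI, RBM8A and RBFOX2 in 5, SNU13 in 6, PRMT5, WDR77 and SNRNP70 in 7, SNUPN and XAB2 in 8 and RBM4 in 9. The highest adjusted p in those fits was 0.112, for WDR77 without long replicate 2. None of these genes, DHX16 and PHF5A included, passed with a fixed block for title prefix (smallest adjusted p = 0.103) or without short replicates 4 and 5 (0.0687), and with short replicate 1 counted as long PHF5A alone did (0.0407).

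Genes of other kinds moved along with length. Of 22 cell cycle genes 5 fell and 20 were below 0, where 6.24% of named genes fell and 58.8% were below 0. The summed signal of the 22 lay between 15.13 and 15.24 (log2) in long and 15.31 and 15.44 in short conceptuses. Trophoblast markers summed to 17.08 to 17.14 in long and 16.52 to 17.02 in short conceptuses. Of the 14 genes 3 rose, where 3.27% of named genes did. These were TKDP2, PAG12 and TFAP2A, with means of 4.74, 8.44 and 10.66 over the 14 arrays. They add little to the sum, which is led by brighter genes such as IFNT2 (14.53) and PAG11 (14.48), near the top of the scale. Hypoblast markers summed to 13.98 to 14.43 and 13.58 to 14.02, but 5 of the 11 genes were below 0 in long: APOA1 and RBP4 rose, and PDGFRA fell by 1.80 (adjusted p = 0.00759; 1 of its 3 probe sets had the opposite sign). The 3 epiblast markers summed to 7.60 to 8.33 and 8.07 to 9.0. The part of these in the splicing factor differences was not tested. Blood and immune cell markers summed to 8.35 to 8.67 in long and 8.59 to 9.03 in short conceptuses, with 6 of 12 at a mean under 5 and CD8A lower by 0.84. Erythroid markers summed to 7.22 to 7.38 and 7.20 to 7.43, with 8 of 9 under 5. The endometrial list differed by UMPS, an enzyme of pyrimidine synthesis that all cells use. Without it the other 9 genes summed to 7.91 to 8.44 in long and 7.79 to 8.23 in short, 7 of them with a mean under 5.

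The study also asked whether conceptuses of poor embryos differ from those of good ones. No splicing factor probe set passed between the 3 Grade 3 and the 11 Grade 1 conceptuses in limma, nor did any of the 24016 probe sets (0% called). At an unadjusted p under 0.05, 5 members were lower and 1 higher, or 5.26% and 1.05% of the members against 2.54% and 2.52% of all probe sets. Of the 95 differences 59 were below 0 (62.1%, against 49.1%). The median member difference was -0.018, and for the median member the 95% interval reached 0.17 to each side. PRPF4B, a kinase that acts on tri-snRNP proteins, had the smallest p. It measured 10.56, 10.41 and 10.49 in Grade 3 and 10.70 ± 0.09 (SD, n = 11) in Grade 1, where no value was as low. The difference was -0.21 ± 0.07 (SE; adjusted p = 0.872), and 0.262% of all probe sets were likewise lower without overlap.

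Grade 3 conceptuses were also set against each length group of Grade 1; these contrasts share the Grade 3 arrays and are given side by side. Neither called any probe set in limma (0% of all). Against short conceptuses, 74 of 95 members (77.9%) were below 0, where 51.9% of all probe sets were, and the median was -0.075. At an unadjusted p under 0.05, 17 members were lower (17.9%, against 6.5% of all probe sets) and 0 higher (4.12% of all). All Grade 3 values lay below all short ones in 13 members (13.7%, against 3.82%) and above them in 0 (against 2.25%). Against long conceptuses, 42 members (44.2%) were below 0, where 44.6% of all probe sets were, with a median of 0.030; 7 were higher (7.37%, against 4.51%) and 4 lower (4.21%, against 4.55%) at an unadjusted p under 0.05. All Grade 3 values lay above all long ones in 11 members (11.6%, against 4.04%) and below them in 3 (3.16%, against 3.1%). The Grade 3 mean lay between the long and short means in 48 of 95 members (50.5%) and in 40.9% of all probe sets. The Grade 1 conceptus with no length lay between these means in 51 members (53.7%), and in 35.4% of all probe sets.

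The 7 members called between long and short had the following Grade 3 values. LSM7 measured 11.42, 11.54 and 11.32 in Grade 3, a difference of 0.17 from long and -0.17 from short. PRPF31 measured 9.46, 9.43 and 9.27, also 0.17 from long and -0.17 from short. In PRPF3 the 3 Grade 3 values, 9.30, 9.32 and 9.31, were nearly equal, at the top of the long range and under the short one. SNRPB measured 12.07, 12.09 and 11.91, below all short conceptuses, and SNRPA1 11.69, 11.79 and 11.62, above all long ones. HNRNPC measured 11.84, 11.88 and 11.84, above the long range and within the short one. The called HNRNPLL probe set measured 9.74, 9.34 and 9.58, a spread as wide as that of short conceptuses, and differed from long by -0.32 ± 0.11 (SE; adjusted p = 0.399). PRPF4B lay below all short and all long conceptuses, by -0.29 ± 0.06 (SE; adjusted p = 0.203) and -0.14 (adjusted p = 0.543).

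A dim PRPF39 probe set, named after its values were seen, differed most by grade, at -0.62 (adjusted p = 0.954). It measured 5.99, 5.20 and 5.24 in Grade 3 and between 5.49 and 6.71 in long conceptuses, and its range over the 14 arrays, 1.52, was the widest of any member. PRPF39 is a U1-associated protein; its brighter probe set stood at -0.18. HNRNPL was the member higher in Grade 3 at an unadjusted p under 0.05, at 9.74, 9.86 and 9.87 against 9.56 ± 0.19 (SD, n = 11), a difference of 0.26 (adjusted p = 0.966).

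**Figure D5:**
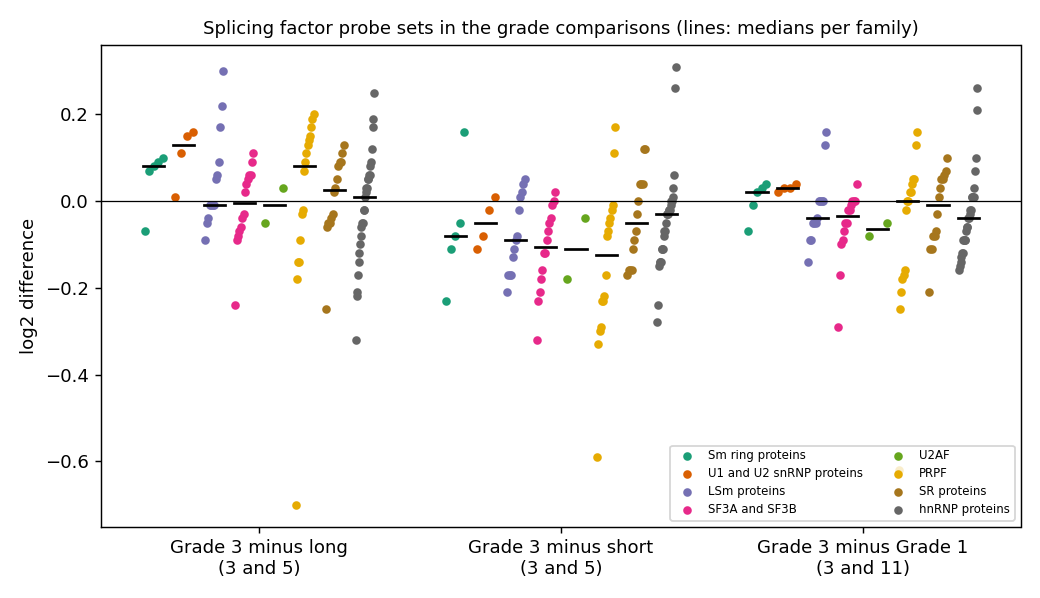
Log2 differences of the 95 splicing factor probe sets in the contrasts of Grade 3 with long, short and all Grade 1 conceptuses, by family, with family medians as black lines; none passed the threshold. Against short conceptuses 74 of 95 points lie below 0, against long ones 42, and the lowest point of each contrast (-0.70, -0.59 and -0.62) belongs to the dim PRPF39 probe set.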

How the data were processed

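Log2 expression levels per probe set are used as the authors deposited them. The submitters' processing notes name RMA and Affymetrix Expression Console. The sources used here give neither their versions nor the arrays that were normalised as 1 set. As background, RMA removes background signal, sets all arrays to 1 distribution and combines the probes, which flattens differences at low signal and takes out any shift shared by all genes. The 112 control probe sets were left out. Symbols came from the platform annotation; the RefSeq gene table (ARS-UCD2.0) held all 95 member probe sets by Entrez number, and 0 symbols changed. No sequence or coordinates are given.

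Long was compared with short Grade 1 (5 and 5), Grade 3 with Grade 1 (3 and 11, since the labels do not name the 4 Grade 1 conceptuses of the design text), and Grade 3 with each length group in a fit of 4 group means over 14 arrays. Each fit used limma 3.58.1 (lmFit, eBayes) in R 4.3.3, two-sided, with Benjamini-Hochberg adjustment over 24016 probe sets and a threshold of 0.05. Named genes are, per family, up to 5 that passed for length, or else the gene with the smallest p, and the smallest p in each grade contrast, and genes with a called and an opposite-signed probe set (there were 0); per further list, up to 4 that passed. A gene is read through its probe set with the highest mean unless stated. The other member genes are listed for completeness.

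Alternatives changed the scaling, a filter on low signal, covariates, array weights, blocks by title prefix and the conceptuses included. The fit was tested on simulated data. Members, by name, and lists were chosen with earlier results of these data known.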

Additional observations from a re-analysis of the deposited data

Results flagged for a closer look

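Of 24 groups of 5 values examined (the named member probe sets and the median deviation of the members, in long and in short conceptuses), 1 held a value far from the rest; chance alone marks about 1 group in 20. SNRPA1 measured 11.42 in Grade 1 long replicate 2, where the nearest of the other long conceptuses measured 11.55. The gap was 0.745 of the range of the group. SNRPA, which was not among the probe sets examined, also had a low value there: 9.12, against 9.66 to 9.79 in the other long conceptuses. Without this conceptus the SNRPA1 difference had adjusted p = 0.103 in limma.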

How the results depend on the processing

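No paired analysis was possible because replicate numbers were given in accession order and pair nothing; title prefixes, whose meaning is not stated, were used as a block instead. No named gene changed direction between long and short under the alternatives run. Between long and short, the count of members that rose (1) was 2 with a minimum mean of 5, with sex as a covariate or with array weights. It was 0 with a fixed block for the title prefix, with the conflicting conceptus counted as long, without short replicates 4 and 5 (chosen after seeing the data, as most apart), or at an unadjusted p under 0.01 with 1.5 fold. The last rule could call no member in either direction, since none differed by 1.5 fold. The count that fell (6) was 3 after quantile normalisation, 13 with the minimum mean, 12 with sex and 15 with an intensity trend, and 0 under the same 4 settings that left no rise. With 1 conceptus left out, rises ranged from 0 to 2 and falls from 0 to 7. The median difference moved from -0.101 to -0.130 with the minimum mean, which tests fewer probe sets, and ranged from -0.126 to -0.096 with 1 conceptus left out. Over all probe sets, 648 rose and 929 fell, 742 and 725 after quantile normalisation, 270 and 222 with the conflicting conceptus as long, and 64 and 48 with the fixed block. Calls over all probe sets also grew where those of members did. With the minimum mean 779 rose and 1222 fell (14.3% called), and with sex 963 and 1440 (10%). With array weights 724 rose and 1026 fell (7.29%), and with an intensity trend 750 and 1074 (7.59%), against 6.57% in the main fit. The cause of these shifts was not tested. Both scalings kept the sign of every family median by length; by grade, quantile normalisation moved that of PRPF from -0.004 to 0.020, and against long conceptuses those of the LSm proteins from -0.005 to 0.005 and of SF3A and SF3B from -0.004 to 0.005. Grade contrasts called 0 members in limma under every alternative. The spread of values on these 14 arrays limits which steps can pass: the 95% interval of a length difference reached 0.15 to each side at the median member.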

Other observations

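The Grade 1 conceptus with no recorded length entered no comparison of lengths. It measured 11.43 for LSM7, 9.40 for PRPF31, 9.21 for PRPF3, 12.18 for SNRPB, 11.69 for SNRPA1, 11.81 for HNRNPC and 9.76 for the called HNRNPLL probe set. PRPF3 was thus within the long range and SNRPB within the short one, and LSM7 and PRPF31 lay between the ranges.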
